A study of Mus musculus with 30 samples.

Results

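The DNA replication machinery was followed as a set of 43 genes, taken as a list of names and not by their levels, out of 19937 genes with a probe set that carries a single symbol. Earlier results of these data were known when the list was chosen. The 43 genes had 45 such probe sets, because Pcna and Tk1 had 2 each. For these 2 genes the brighter probe set on average over the arrays was used. The set covered 8 genes of origin recognition and licensing, the 6 subunits of the MCM2-7 helicase, 7 genes of helicase activation, 8 polymerase and primase subunits, 10 genes of the clamp, clamp loader, flap processing and single-strand binding, and 4 genes of nucleotide supply.

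Replication starts in 2 steps. The origin recognition complex, Cdc6 and Cdt1 load the MCM2-7 ring on DNA in G1, and geminin (Gmnn) blocks reloading later in the cycle. Cdc7 with Dbf4 then phosphorylates the ring, Cdc45 and the GINS complex turn it into a running helicase, and polymerases alpha, epsilon and delta copy the strands with the help of the sliding clamp PCNA. Germinal centres (GC) are lymph node structures in which antigen-activated B cells divide fast. Their dark zone is known for division and their light zone for selection by antigen and T cells. Naive B cells are resting, and plasma cells (PC) secrete antibody and leave the cycle as they mature.

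Transcript levels came from 30 Affymetrix arrays of B cells sorted from the mesenteric lymph nodes of CeGFP BALB/c mice on day 10 of infection with the worm Nippostrongylus brasiliensis. All groups shared this genotype, a knocked-in IRES-GFP cassette in the 3' untranslated region of membrane IgE, and all groups came from infected animals, the naive cells included. GFP therefore marks IgE cells, and also IgG1 cells whose other heavy-chain chromosome, the one without a productive VDJ, has been rearranged to Cepsilon. Each array held cells pooled from 3 mice in an independent sort, and the age of the mice was not given in the sources used here. The first experiment had 18 arrays in 6 groups. GC cells (B220+ CD95+ CD138-) were IgG1 GFP- (3 arrays), IgG1 GFP+ (3) or IgE (3), plasma cells (CD95+ CD138+) were IgG1 (2) or IgE (4), and naive cells (3) were B220+ CD95- CD138- without IgG1 or IgE. The second experiment had 12 arrays of IgG1 GC cells, split into dark zone (DZ, CXCR4 high CD86 low) and light zone (LZ, CXCR4 low CD86 high), each GFP+ and GFP-, with 3 arrays per group. The values are log2 signals, so a difference of 1 is a doubling, and levels of different genes were not set against each other.

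All 43 genes were tested in both experiments, among 12098 genes in the first and 11050 in the second. Linear models were fitted over all genes with limma, and a gene was called at a Benjamini-Hochberg adjusted p under 0.05. Array medians ran from 5.28 to 5.47, and arrays of one group correlated at 0.891 to 0.975 over all probe sets. Naive array 1 and GFP+ IgG1 GC array 3 stood apart from their groups. The 2 IgG1 plasma cell arrays also differed in the mean over the 43 genes (7.51 and 8.14), and the IgE plasma cell arrays ran from 7.62 to 8.21. Sdc1 and Bcl6 followed the labels, while other GC markers were not limited to GC cells. All 4 GC markers tested were called higher in each GC group than in naive cells. Of these 4, 3 were called higher and 1 lower in IgE plasma cells than in naive cells, and 2 and 1 in IgG1 plasma cells. Between IgE and IgG1 plasma cells, 2 of the 4 were called higher in IgE cells. All 5 plasma cell markers tested were called higher in both plasma cell groups than in naive cells. Of these 5, 2 were also called higher and 1 lower in IgE GC than in naive cells, and 1 and 1 in each IgG1 GC group. Their mean level was 7.36 to 8.10 on IgE GC arrays and 6.90 to 7.53 on IgG1 GC arrays. It was 6.03 to 6.57 on naive arrays and 10.47 to 10.87 on plasma cell arrays. Sdc1, which encodes CD138, had a mean of 8.25 in IgG1 and 8.80 in IgE plasma cells against 4.57 to 4.88 in GC cells and 4.59 in naive cells, and Bcl6, the GC transcription factor, was at 10.94 to 11.03 in GC cells, 9.39 in naive cells and 4.98 to 5.07 in plasma cells. The marker lists of natural killer cells (3 genes) and of basophils and mast cells (4 genes) were below the array median on every array. In bulk samples, fewer cells in cycle and less RNA per cell cannot be told apart.

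Nearly the whole set was higher in GC cells than in naive cells. In IgE GC cells 39 of the 43 genes were called higher and none lower, with a median log2 difference of 2.41. In GFP+ IgG1 GC cells 38 were higher and none lower (median 2.12), and in GFP- IgG1 GC cells 40 were higher and none lower (median 2.24). Of all genes tested, 19.3% were called higher and 7.4% lower in IgE GC cells, 16.8% and 6.43% in GFP+ IgG1 GC cells, and 20.5% and 9.35% in GFP- IgG1 GC cells, with medians of 0.059, 0.023 and 0.071. The 3 comparisons share the naive arrays, so they are not separate evidence. On the naive arrays 26 of the 43 genes were above the array median on every array. Orc1, Cdc6, Gins1, Gins3, Pole, Pole2 and Rrm2 were above it on no naive array and passed the filter on dim genes only through groups where they were higher. Without these 7, 32, 31 and 33 of the other 36 genes were called higher in the same 3 comparisons.

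Other cell types were not equal between these groups. The 6 myeloid markers had a mean log2 level of 5.50 to 6.18 on the naive arrays and 4.92 to 5.41 on the GC arrays, with 2 to 3 of the 6 above the array median in both. The 5 T cell markers were at 5.40 to 5.83 on the naive and 4.85 to 5.70 on the GC arrays, and the 4 stromal and endothelial markers at 6.45 to 6.90 and 5.72 to 6.11. Of the T cell markers 2 to 3 were above the array median on the naive and 1 to 3 on the GC arrays, and of the stromal markers 3 and 2 to 3. Their part in the replication genes' differences was not tested. Without naive array 1 and GFP+ GC array 3, 37, 36 and 37 of the 43 genes were called higher in IgE, GFP+ IgG1 and GFP- IgG1 GC cells.

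**Figure D1:**
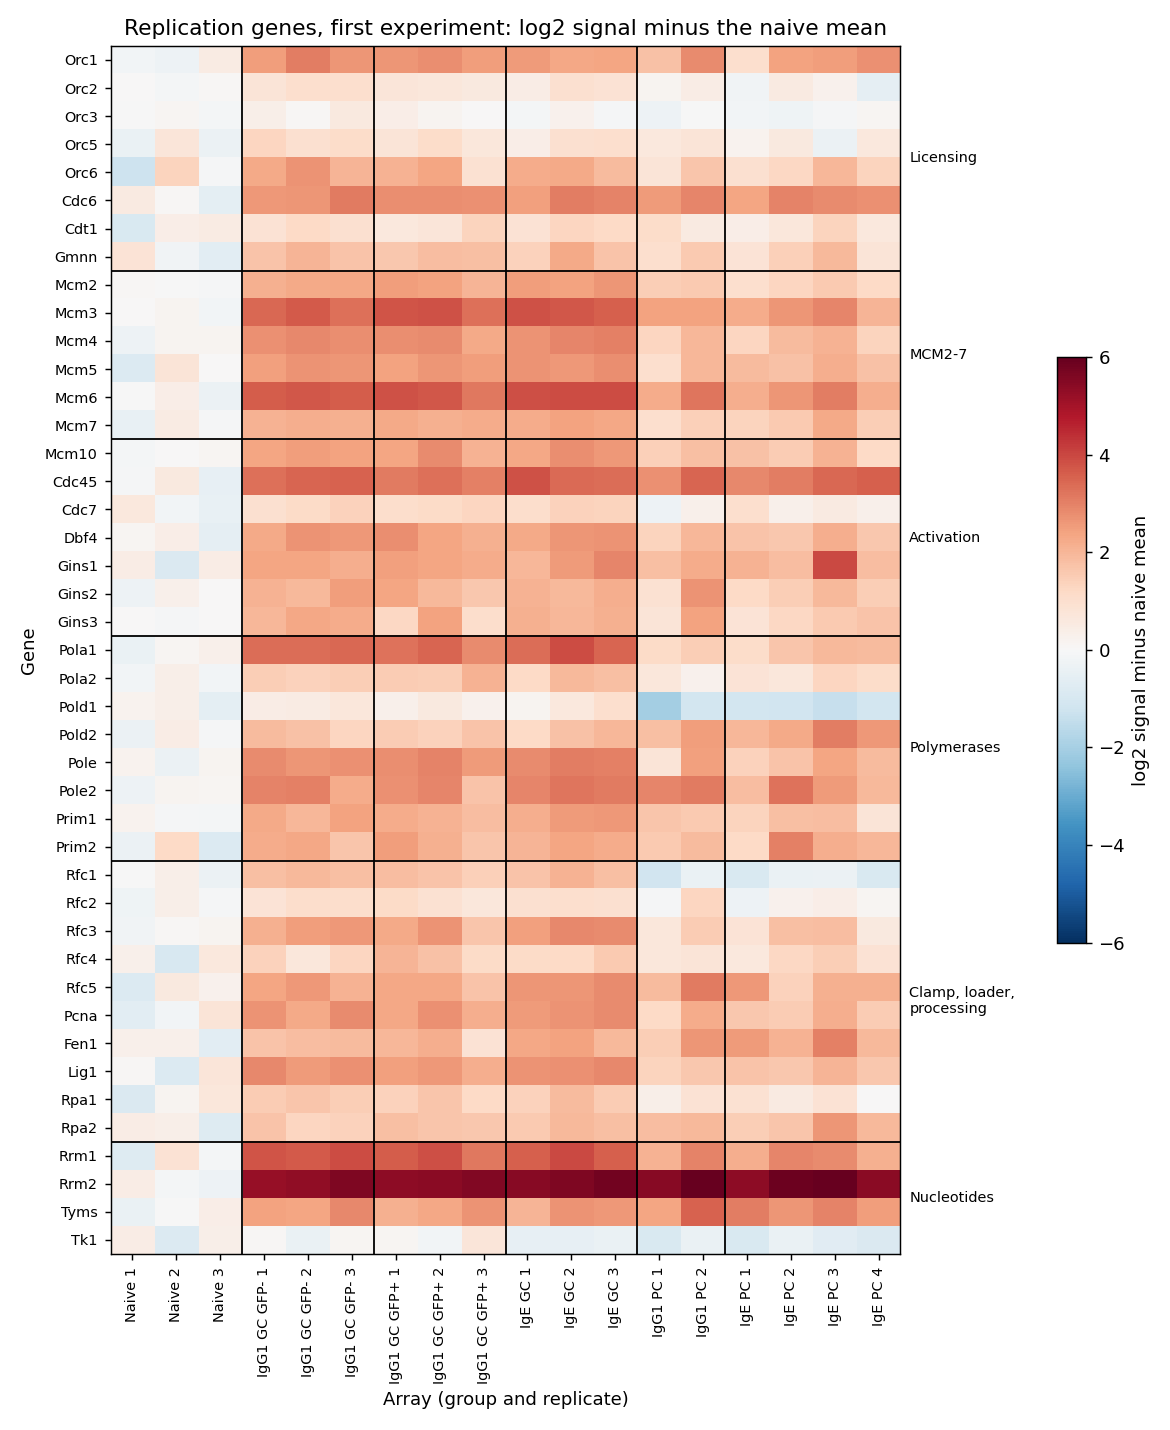
Log2 signal of the 43 replication genes (rows, grouped by role) on the 18 arrays of the first experiment (columns, grouped by cell population), minus each gene's mean over the 3 naive arrays, from blue (lower) to red (higher). The 9 GC columns are red for nearly every gene, with Rrm2 the darkest row, while Orc3 and Tk1 stay pale and Pold1 and Rfc1 turn blue in plasma cells.

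Licensing genes ranged widely in their difference from naive cells. Cdc6 and Orc1, the licensing ATPase and the largest origin recognition subunit, had the largest differences of the 8, and Orc3, another origin recognition subunit, the smallest. Cdc6 was at 5.08, 4.60 and 3.94 in naive cells, 7.14, 7.20 and 7.65 in GFP- IgG1 GC cells, 7.33, 7.34 and 7.26 in GFP+ IgG1 GC cells and 7.0, 7.62 and 7.5 in IgE GC cells. Orc1 was at 4.07, 3.90 and 4.71 in naive cells, 6.75, 7.28 and 6.87 in GFP- IgG1 GC cells, 6.86, 7.0 and 6.71 in GFP+ IgG1 GC cells and 6.76, 6.55 and 6.60 in IgE GC cells. For both genes every GC array lay above every naive array. The difference of IgE GC from naive cells was 2.84 ± 0.26 (SE) for Cdc6 (adjusted p = 4.07e-07) and 2.41 ± 0.37 for Orc1 (adjusted p = 0.000121). Both were above the array median on no naive array, so these sizes and their rank are uncertain and the calls carry little weight.

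Orc3 was at 8.53, 8.67 and 8.40 in naive cells, 8.88, 8.62 and 9.13 in GFP- IgG1 GC cells, 8.93, 8.72 and 8.55 in GFP+ IgG1 GC cells and 8.42, 8.79 and 8.48 in IgE GC cells. Its groups overlapped, and the differences from naive cells were 0.03 ± 0.18, 0.20 ± 0.18 and 0.34 ± 0.18 in IgE, GFP+ IgG1 and GFP- IgG1 GC cells, none of them called (adjusted p = 0.926, 0.436 and 0.149). Of the remaining origin recognition subunits, Orc6 was called higher in all 3 GC groups (2.14, 1.79 and 2.34), Orc2 also (0.76, 0.66 and 0.94), and Orc5 only in GFP- IgG1 GC cells (1.11, against 0.80 and 0.85 in the others, adjusted p = 0.057 and 0.0503). The Orc2 call was lost in 12 of 16 alternatives in GFP+ IgG1 GC cells (adjusted p up to 0.119, every single-array omission from either group included) and in 3 in IgE GC cells, with further quantile normalization or without IgE GC array 2 or 3. The Orc6 call in GFP+ IgG1 GC cells was lost in 4, with the smallest difference of 1.17 without naive array 1, and also without GFP+ array 1 or 2. The Orc5 call was lost without naive array 1 (0.91), while without naive array 2 Orc5 was called in IgE (1.18) and GFP+ IgG1 GC cells (1.22). Neither IgE against GFP+ IgG1 GC cells nor GFP+ against GFP- IgG1 GC cells gave a call for any of these when tested directly, and IgE against GFP- IgG1 GC cells was not tested. Orc5 was at 5.75, 6.91 and 5.83 in naive cells, 7.45, 7.13 and 7.25 in GFP- IgG1 GC cells, 6.92, 7.27 and 6.84 in GFP+ IgG1 GC cells and 6.58, 7.12 and 7.19 in IgE GC cells. Naive array 2 was at the level of the GC arrays and the other two naive arrays were lower. Cdt1, the MCM loading factor, was at 5.88, 7.17 and 7.28 in naive cells, 7.65, 7.96 and 7.74 in GFP- IgG1 GC cells, 7.41, 7.49 and 8.10 in GFP+ IgG1 GC cells and 7.67, 8.05 and 7.98 in IgE GC cells. It was called in IgE GC cells (1.12 ± 0.33, adjusted p = 0.0175) and in GFP- IgG1 GC cells (1.00), and not in GFP+ IgG1 GC cells (0.89 ± 0.33, adjusted p = 0.0589). Naive array 1 was the low one for Cdt1, and without it the differences in IgE and GFP- IgG1 GC cells were 0.67 and 0.55 and not called. The Cdt1 call was lost in 5 of 16 alternatives in IgE GC cells (also without IgE GC array 2 or 3) and in 8 of 16 in GFP- cells (also without any 1 of the GFP- arrays), and was gained in 3 in GFP+ cells, among them without naive array 2 (1.09) or 3 (1.14). Geminin was called higher in all 3, by 1.76 to 1.81.

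The MCM2-7 subunits form the ring that unwinds DNA, and all 6 were called higher in all 3 GC groups, by 2.14 to 3.91. Mcm6 was at 5.85, 6.26 and 5.52 in naive cells, 9.52, 9.61 and 9.52 in GFP- IgG1 GC cells, 9.67, 9.61 and 9.04 in GFP+ IgG1 GC cells and 9.76, 9.80 and 9.80 in IgE GC cells. Mcm3 was at 5.50, 5.64 and 5.35 in naive cells, 8.95, 9.17 and 8.80 in GFP- IgG1 GC cells, 9.28, 9.32 and 8.80 in GFP+ IgG1 GC cells and 9.30, 9.22 and 9.10 in IgE GC cells. These 2 genes had the largest differences of the 6, 3.91 ± 0.28 for Mcm6 in IgE GC cells, or 15-fold (adjusted p = 2.17e-08), and 3.71 ± 0.21 for Mcm3, or 13.1-fold (adjusted p = 1.72e-09). Mcm7 had the smallest and was at 6.31, 7.25 and 6.69 in naive cells, 8.86, 8.95 and 8.88 in GFP- IgG1 GC cells, 9.02, 8.90 and 8.97 in GFP+ IgG1 GC cells and 8.97, 9.14 and 9.05 in IgE GC cells. Its GC and naive arrays were also far apart, at 2.31 ± 0.24 in IgE GC cells (adjusted p = 2.27e-06).

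All 7 helicase activation genes were called higher in all 3 GC groups. Cdc45, which joins the ring at firing origins, was at 5.87, 6.51 and 5.46 in naive cells, 9.24, 9.45 and 9.50 in GFP- IgG1 GC cells, 9.04, 9.26 and 8.97 in GFP+ IgG1 GC cells and 9.79, 9.36 and 9.31 in IgE GC cells. Dbf4, the regulatory subunit of the Cdc7 kinase, was at 5.83, 6.15 and 5.22 in naive cells, 7.99, 8.44 and 8.32 in GFP- IgG1 GC cells, 8.54, 8.10 and 7.89 in GFP+ IgG1 GC cells and 8.01, 8.39 and 8.44 in IgE GC cells. Both were higher on every GC array than on every naive array, by 3.54 ± 0.26 (adjusted p = 3.42e-08) and 2.54 ± 0.26 (adjusted p = 1.5e-06) in IgE GC cells. Cdc7, the catalytic partner of Dbf4, had the smallest difference of the 7 and was at 7.37, 6.60 and 6.30 in naive cells, 7.71, 7.93 and 8.15 in GFP- IgG1 GC cells, 7.79, 7.91 and 8.03 in GFP+ IgG1 GC cells and 7.81, 8.14 and 8.07 in IgE GC cells. Naive array 1 was the highest naive array and still lay below all GC arrays, and the difference in IgE GC cells was 1.25 ± 0.26 (adjusted p = 0.00167). The GINS genes Gins1, Gins2 and Gins3 and the scaffold gene Mcm10 were higher by 1.56 to 2.57 over the 3 comparisons. Gins1 and Gins3 were above the array median on no naive array, so their calls carry little weight.

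Of the polymerase and primase subunits, 7 of 8 were called higher in each GC group. Pola1, the catalytic subunit of polymerase alpha, which starts new strands with primase, was at 5.10, 5.65 and 5.80 in naive cells, 8.88, 8.86 and 8.97 in GFP- IgG1 GC cells, 8.75, 9.02 and 8.37 in GFP+ IgG1 GC cells and 8.85, 9.43 and 9.0 in IgE GC cells. Pole, the catalytic subunit of the leading-strand polymerase epsilon, was at 5.45, 4.89 and 5.44 in naive cells, 8.09, 7.93 and 8.01 in GFP- IgG1 GC cells, 8.05, 8.25 and 7.81 in GFP+ IgG1 GC cells and 8.12, 8.33 and 8.31 in IgE GC cells. Neither gene's GC arrays overlapped its naive arrays, and the differences in IgE GC cells were 3.58 ± 0.25 for Pola1 (11.9-fold, adjusted p = 1.51e-08) and 2.99 ± 0.32 for Pole (adjusted p = 2.8e-06). Pole and the other epsilon subunit, Pole2, were above the array median on no naive array. The sizes of their differences are therefore uncertain and their calls carry little weight. The exception was Pold1, the catalytic subunit of polymerase delta, at 8.34, 8.47 and 7.54 in naive cells, 8.55, 8.59 and 8.80 in GFP- IgG1 GC cells, 8.43, 8.71 and 8.36 in GFP+ IgG1 GC cells and 8.28, 8.73 and 9.15 in IgE GC cells. Naive arrays 1 and 2 reached the GC levels and naive array 3 did not, and the differences of 0.60, 0.39 and 0.53 were not called (adjusted p = 0.112, 0.327 and 0.146). The accessory delta subunit Pold2 was called higher in all 3 (1.65, 1.54 and 1.64).

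All 10 genes that load the clamp, process flaps and coat single strands were called higher in all 3 GC groups. Lig1, the ligase that seals Okazaki fragments, was at 6.68, 5.80 and 7.34 in naive cells, 9.47, 9.18 and 9.35 in GFP- IgG1 GC cells, 9.06, 9.18 and 8.77 in GFP+ IgG1 GC cells and 9.28, 9.35 and 9.49 in IgE GC cells. Pcna, the clamp, was at 8.75, 9.19 and 10.17 in naive cells, 12.07, 11.63 and 12.19 in GFP- IgG1 GC cells, 11.68, 12.13 and 11.55 in GFP+ IgG1 GC cells and 11.95, 12.08 and 12.22 in IgE GC cells. Averaged over the 3 comparisons these had the largest differences of the 10, with 2.77 ± 0.27 (adjusted p = 1.17e-06) and 2.71 ± 0.33 (adjusted p = 1.02e-05) in IgE GC cells, with no overlap between GC and naive arrays. The other probe set of Pcna was at 8.70, 9.47 and 9.48 on the naive arrays and at 11.29 to 11.54 on the GC arrays, which is the same direction. With that probe set the difference in IgE GC cells was 2.22. The average of Pcna over the 3 comparisons then lay below those of Rfc3 (2.45) and Rfc5 (2.38), so its rank depends on the probe set. Rfc2, a small clamp loader subunit, had the smallest difference and was at 7.77, 8.36 and 7.97 in naive cells, 8.87, 9.11 and 9.10 in GFP- IgG1 GC cells, 9.20, 8.92 and 8.73 in GFP+ IgG1 GC cells and 9.0, 9.02 and 9.0 in IgE GC cells, so that it rose by 0.97, 0.92 and 0.99 in IgE, GFP+ IgG1 and GFP- IgG1 GC cells (adjusted p = 0.015, 0.0224 and 0.0133). Without naive array 1 the Rfc2 differences were 0.84, 0.79 and 0.86 and not called, and the Rfc4 call in GFP- IgG1 GC cells (1.10) was lost without naive array 2 (0.62), GFP- array 1 or GFP- array 3. The large clamp loader subunit Rfc1 was higher by 1.86, 1.67 and 1.85.

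Nucleotide supply genes ranged from Rrm2, with a wide difference, to Tk1, with an uncertain one. Rrm2, the small ribonucleotide reductase subunit and a protein known to be made in S phase, was at 4.95, 4.39 and 4.22 in naive cells, 9.77, 9.84 and 10.11 in GFP- IgG1 GC cells, 9.90, 9.92 and 10.05 in GFP+ IgG1 GC cells and 9.98, 10.14 and 10.33 in IgE GC cells. Rrm1, the large subunit of the same enzyme, was at 5.14, 6.74 and 5.79 in naive cells, 9.67, 9.56 and 9.80 in GFP- IgG1 GC cells, 9.54, 9.78 and 9.07 in GFP+ IgG1 GC cells and 9.47, 9.84 and 9.46 in IgE GC cells. Rrm2 had a difference of 5.63 ± 0.25 in IgE GC cells (adjusted p = 8.35e-11). It was one of the 7 genes above the array median on no naive array, so the size of its difference is uncertain and its call carries little weight. Rrm1 was higher, at 3.70 ± 0.35 (adjusted p = 5.92e-07), and thymidylate synthase (Tyms) at 2.45 ± 0.29 (adjusted p = 1.01e-05).

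Thymidine kinase (Tk1) depended on the probe set. The one with the higher mean was at 9.86, 8.60 and 9.75 in naive cells, 9.47, 8.99 and 9.53 in GFP- IgG1 GC cells, 9.50, 9.24 and 10.12 in GFP+ IgG1 GC cells and 8.91, 8.90 and 9.02 in IgE GC cells, with overlapping groups and no call (-0.46, 0.22 and -0.07, adjusted p = 0.264, 0.638 and 0.871). The other was at 7.30, 6.94 and 7.90 in naive cells, 8.55, 8.20 and 8.76 in GFP- IgG1 GC cells, 8.59, 9.02 and 8.74 in GFP+ IgG1 GC cells and 8.88, 8.71 and 8.88 in IgE GC cells. All GC arrays lay above all naive arrays with that probe set, the IgE GC difference was 1.45, and its adjusted p was 0.000875 (range 0.000875 to 0.657 over the alternatives for Tk1). Which of the pair follows the Tk1 transcript was not settled here, so Tk1 is uncertain in every comparison.

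**Figure D2:**
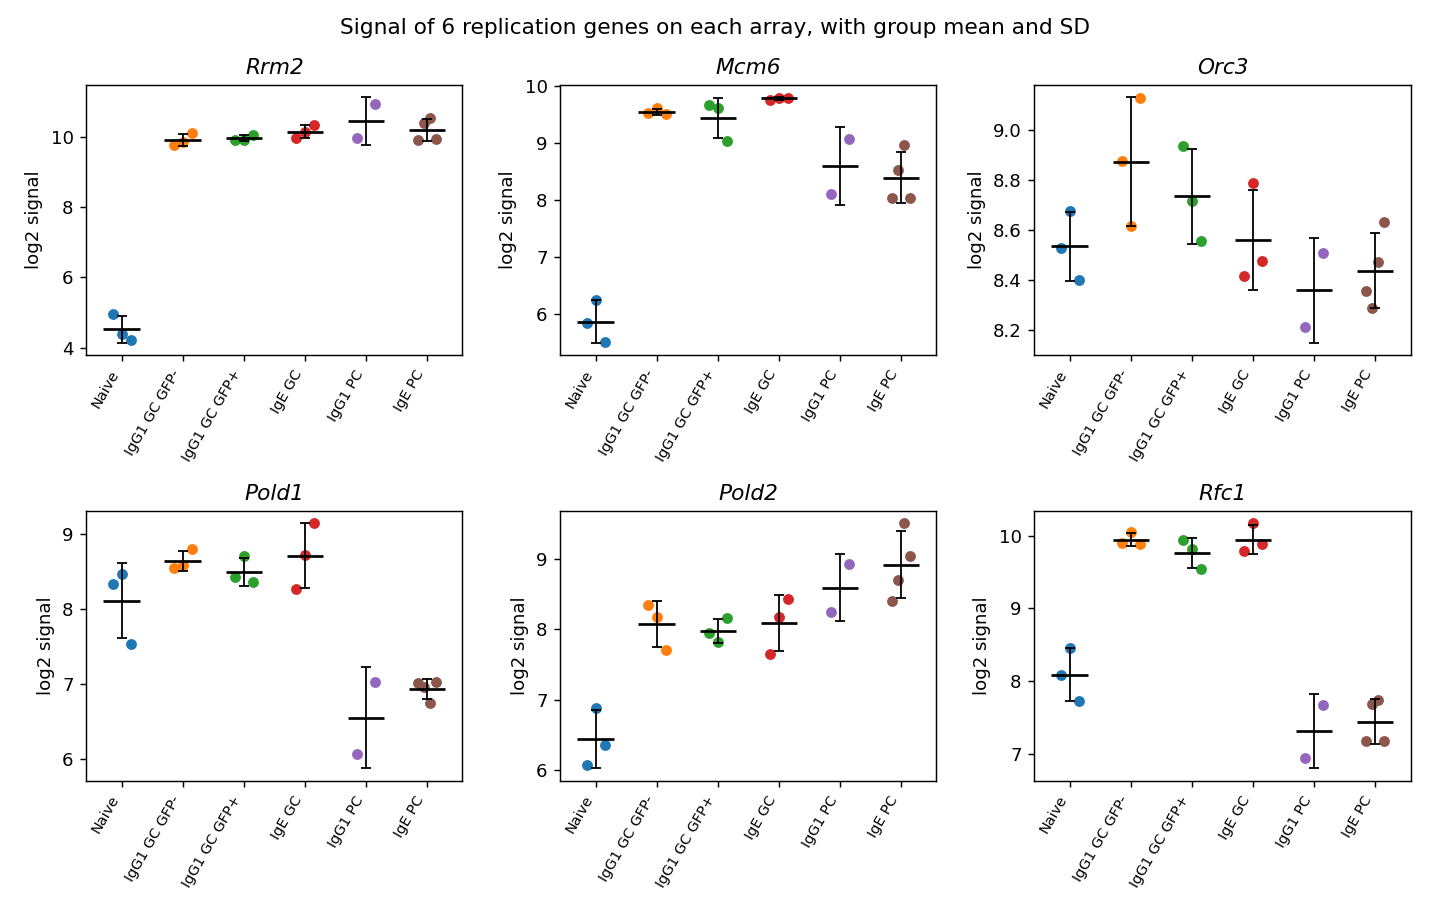
Log2 signal (vertical axes, each with its own range and not starting at 0) of Rrm2, Mcm6, Orc3, Pold1, Pold2 and Rfc1 on every array of the first experiment (points), with the group mean (wide line) and SD (bar), n = 3 arrays per group, 2 for IgG1 and 4 for IgE plasma cells. Rrm2 is near 10 in all GC and plasma cell groups, and Mcm6 is intermediate in plasma cells. Orc3 overlaps between naive cells and each GC group, while its IgG1 plasma cell arrays lie below all IgG1 GC arrays. Pold1 and Rfc1 are lowest in plasma cells, and Pold2 is highest there.

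Short sequence matches were counted in the promoters. E2F transcription factors are known to control genes of the G1 to S transition, and 4 spellings of their consensus (TTTCCCGC, TTTCGCGC, TTTGCCGC and TTTGGCGC) were searched on both strands from 250 bases before to 50 bases after each start site in RefSeq promoters (GRCm38.p6). Of the 43 genes, 36 were matched by symbol, and Gmnn, Mcm4, Gins1, Gins2, Pole, Prim2 and Rfc2 were not searched. At least 1 spelling was found for 14 of the 36 genes (38.9%), against 2.6% of all 27025 genes searched, or 32.6% of the members' windows against 2.26% of 32851 windows. The letters CCAAT, searched the same way, were found for 58.3% of the members and 41.1% of all genes. The 6 windows of 30 bases below, each 5′ to 3′ on the gene's strand, show matches upstream of the start for 5 genes that were higher in GC cells and for Orc3, which was not called. Capitals mark the match, as spelled or in reverse complement.
Mcm6, chr1:128359734-128359763, minus strand: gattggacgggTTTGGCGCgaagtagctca
Pola1, chrX:93632275-93632304, minus strand: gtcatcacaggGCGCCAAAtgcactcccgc
Cdc6, chr11:98908002-98908031, plus strand: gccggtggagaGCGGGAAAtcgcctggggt
Orc1, chr4:108579416-108579445, plus strand: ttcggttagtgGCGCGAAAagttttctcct
Mcm7, chr5:138172030-138172059, minus strand: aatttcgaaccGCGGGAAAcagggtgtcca
Orc3, chr4:34614965-34614994, minus strand: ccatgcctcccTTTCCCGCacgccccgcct

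Counted in bases from the start site, the capitals begin at -47 in Mcm6, -138 in Pola1 and Cdc6, -27 in Orc1, -165 in Mcm7 and -41 in Orc3. Mcm6 held 3 matches, of which a pair further upstream overlapped on opposite strands. The 14 genes with a match had a median difference between GC and naive cells (mean of the 3 comparisons) of 2.60, and the 22 without had 2.00. Both sets were broad, from 0.19 (Orc3) to 3.72 (Mcm6) with a match and from -0.10 (Tk1) to 5.48 (Rrm2) without. Orc1, Cdc6, Gins3 and Pole2, with a match, and Rrm2, without, were above the array median on no naive array. The sizes of their differences are uncertain, and so are the 2 medians. A match is a description of the letters and not a binding site, and a gene without one may hold other spellings.

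Most of the set was also higher in plasma cells than in naive cells. In IgE plasma cells 33 of the 43 genes were called higher than in naive cells and 3 lower (median 1.66), and in IgG1 plasma cells 30 higher and 2 lower (median 1.61). Of all genes tested, 23% were higher and 14.1% lower in IgE plasma cells, with a median of -0.0078, and 17.1% and 12.2% in IgG1 plasma cells, with a median of 0.010. Without the 7 genes that were above the array median on no naive array, 26 of 36 were called higher and 3 lower in IgE plasma cells, and 23 and 2 in IgG1 plasma cells. Fitted on the groups compared alone, IgG1 plasma cells against naive cells gave 21 calls in place of 32. The 6 myeloid markers were at 4.99 to 5.86 in plasma cells against 5.50 to 6.18 in naive cells, with 1 to 3 above the array median in plasma cells. Of the 4 myeloid markers tested, 1 was called higher and 2 lower than in naive cells in each isotype. The 5 T cell markers were at 5.05 to 5.60 in IgG1 and 4.92 to 5.08 in IgE plasma cells against 5.40 to 5.83 in naive cells, with 1 to 3 and 1 above the array median, and 3 of the 4 tested were called lower in IgE plasma cells and 1 in IgG1. The 4 stromal and endothelial markers were at 5.65 to 5.75 and 5.62 to 5.93 against 6.45 to 6.90, with 3 to 4 above the array median in plasma cells. Of these, 1 was called higher and 1 lower in IgE plasma cells, and 1 lower in IgG1. The part of these lists was not tested.

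The genes lower in plasma cells than in naive cells were Pold1 and Rfc1 in both isotypes and, with 1 of its probe sets, Tk1 in IgE plasma cells. Pold1 was lower, at -1.18 ± 0.25 in IgE (adjusted p = 0.00149) and -1.57 ± 0.30 in IgG1 plasma cells (adjusted p = 0.000791). Rfc1 was lower, at -0.64 ± 0.22 (adjusted p = 0.0279) and -0.78 ± 0.26 (adjusted p = 0.0313), and this call was lost without naive array 1 or 2 in both isotypes, without IgE plasma cell array 1 or 4 in IgE cells, and without array 1 in IgG1 plasma cells, where the difference was -0.42. The Tk1 call (-0.73, adjusted p = 0.0486) turned to 1.07 with the other probe set. Orc2, Orc3, Orc5, Cdt1, Cdc7, Rfc2 and Rpa1 were not called in IgE plasma cells, at 0.01, -0.10, 0.27, 0.76, 0.54, 0.11 and 0.59. Rrm2, above the array median on no naive array, differed by 5.67 ± 0.23 and 5.93 ± 0.28.

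Set against GC cells of the same isotype, many of the genes were lower in plasma cells. These comparisons share their GC and plasma cell arrays with those against naive cells. In IgE plasma cells 21 of the 43 genes were called lower and 1 higher than in IgE GC cells, with a median difference of -0.71, where 13.4% of all genes tested were lower and 10.2% higher (median -0.025). In IgG1 plasma cells 14 were lower and none higher than in GFP+ IgG1 GC cells, with a median of -0.57, where 13.1% of all genes were lower and 8.32% higher (median -0.013). A list of 24 mitotic genes gave 15 lower in IgE cells (median -0.84) and 5 in IgG1 cells (median -0.49), with none higher. All 24 were called higher than in naive cells in every GC and plasma cell group. Whether these mitotic genes were above the array median on the naive arrays was not examined, so the weight of those calls is uncertain. For the 43 genes, the IgE count of 22 calls fell to 12 without IgE GC array 2. The IgG1 count of 14 fell to 8 without GFP+ GC array 1, without GFP+ GC array 2, without IgG1 plasma cell array 1, or when only the 2 groups were fitted, and rose to 18 without IgG1 plasma cell array 2. Without IgG1 plasma cell array 1 the 8 calls were 2 higher and 6 lower. Rfc1, Pold1, Pola1, Pola2 and Mcm3 were called lower in IgG1 cells in every alternative run. The IgG1 calls of Pole, Cdc7, Rfc3, Mcm2, Mcm4, Mcm5, Mcm7, Mcm10 and Lig1 were each lost in at least 1. In IgE cells 12 of the 22 calls held in every alternative. Those of Rrm1, Rpa1, Pcna, Rfc2, Pold2, Mcm5, Dbf4, Orc2, Cdc7 and Pola2 were each lost in at least 1.

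Most helicase subunits were lower in plasma cells. Of the MCM2-7 subunits, 5 of 6 were called lower in each isotype, Mcm7 missing in IgE (-0.63, adjusted p = 0.0524) and Mcm6 in IgG1 (-0.85, adjusted p = 0.0636). Of the called subunits, Mcm3 alone held in IgG1 cells in every alternative, and Mcm5 did not hold in IgE cells. Mcm6 was at 8.11 and 9.08 in IgG1 plasma cells and 8.04, 8.53, 8.96 and 8.03 in IgE plasma cells, and its difference from GC cells in IgE cells was -1.39 ± 0.26 (adjusted p = 0.000671). Mcm3 was at 7.91 and 7.93 in IgG1 plasma cells and 7.73, 8.13, 8.41 and 7.55 in IgE plasma cells, below all GC arrays, with differences of -1.25 ± 0.20 (adjusted p = 0.000132) and -1.21 ± 0.23 (adjusted p = 0.00109). All plasma cell arrays stood between the naive and the GC arrays for Mcm3, and for Mcm6 all but IgG1 array 2, which reached the lowest GC array.

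Licensing genes were mostly not called between plasma and GC cells. Of the 8, Orc2 alone was called, in IgE cells (-0.75, adjusted p = 0.0157). Cdc6 was at 7.10 and 7.46 in IgG1 plasma cells and 6.93, 7.52, 7.39 and 7.30 in IgE plasma cells, overlapping the GC arrays, and its differences from GC cells were -0.09 ± 0.24 and -0.03 ± 0.29. Orc1 was at 5.99 and 7.06 in IgG1 plasma cells and 5.24, 6.64, 6.71 and 6.98 in IgE plasma cells, with IgE plasma cell array 1 the lowest. Among activation genes, Mcm10 and Cdc7 were called lower in both isotypes and Dbf4 in IgE cells (-0.77). Cdc45 was at 8.71 and 9.43 in IgG1 plasma cells and 8.84, 9.0, 9.40 and 9.52 in IgE plasma cells, and its differences of -0.29 and -0.03 were not called (adjusted p = 0.47 and 0.964).

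Values were unequal among the subunits of one polymerase or loader. Rfc1, the large subunit that forms the replicative clamp loader, was at 6.95 and 7.67 in IgG1 plasma cells and 7.18, 7.69, 7.74 and 7.18 in IgE plasma cells. Every plasma cell array lay below every GC array, and the differences of -2.50 ± 0.22 in IgE (5.65-fold lower, adjusted p = 2.26e-07) and -2.45 ± 0.26 in IgG1 cells (5.47-fold lower, adjusted p = 2.62e-06) were the largest of the set. Rfc3 was at 7.09 and 7.94 in IgG1 plasma cells and 7.26, 8.22, 8.27 and 7.03 in IgE plasma cells and was lower, at -1.46 ± 0.31 (adjusted p = 0.00227) and -1.11 ± 0.38 (adjusted p = 0.0444, and -0.68 without IgG1 plasma cell array 1). Rfc2 was called in IgE cells only (-0.86 and -0.29), a difference between isotypes that was not called when tested as an interaction (-0.57, adjusted p = 0.89). Rfc4 and Rfc5, the other small subunits, were called in neither isotype, at -0.23 and -0.90 for Rfc4 and -0.64 and 0.39 for Rfc5.

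Pola1 was at 6.65 and 6.98 in IgG1 plasma cells and 6.63, 7.18, 7.48 and 7.43 in IgE plasma cells. No plasma cell array reached the GC range, and the differences were -1.92 ± 0.23 (adjusted p = 8.59e-06) and -1.90 ± 0.28 (adjusted p = 7.95e-05). Pola2, the B subunit of polymerase alpha, was at 7.23 and 6.84 in IgG1 plasma cells and 7.39, 7.27, 7.85 and 7.67 in IgE plasma cells and was lower, at -0.69 ± 0.22 (adjusted p = 0.0287) and -1.23 ± 0.26 (adjusted p = 0.00226). The primase subunit Prim2 was not called in either isotype (-0.12 and -0.39), and Prim1 was called in IgE cells (-1.01, and -0.42 in IgG1 cells).

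Polymerase delta subunits gave values of both signs. Pold1 was at 6.07 and 7.03 in IgG1 plasma cells and 7.01, 6.96, 6.75 and 7.03 in IgE plasma cells, below every GC and every naive array, and its differences from GC cells were -1.78 ± 0.25 (adjusted p = 5.1e-05) and -1.95 ± 0.30 (adjusted p = 0.000155). Pold2, named here after its values were seen, was at 8.25 and 8.93 in IgG1 plasma cells and 8.41, 8.71, 9.51 and 9.05 in IgE plasma cells, against 7.65, 8.18 and 8.42 in IgE GC cells and 6.07, 6.89 and 6.35 in naive cells. It was the 1 gene of the set called higher in plasma cells, in IgE cells, at 0.83 ± 0.28 (adjusted p = 0.0376), and was not called in IgG1 cells (0.62 ± 0.33, adjusted p = 0.218). That call was lost without IgE GC array 1 or 2, without IgE plasma cell array 3 or 4, without a filter on dim genes, with the 2 groups fitted alone, and when replicate numbers entered the fit as a block (0.79). Pold4, the smallest delta subunit and not one of the 43, was at 11.05 to 11.49 in IgE GC cells and 8.12 to 8.82 in IgE plasma cells, with differences of -2.76 ± 0.27 (adjusted p = 7.86e-07) and -2.62 ± 0.32 in IgE and IgG1 cells (adjusted p = 1.4e-05). For polymerase epsilon, Pole was called lower in both isotypes (-1.15 and -1.16, the latter -0.33 without IgG1 plasma cell array 1) and Pole2 in neither (-0.67 and 0.56).

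In the group of processing genes, Lig1 was called lower in both isotypes (-1.02 and -0.94), while Fen1, the flap nuclease, was at 0.19 and 0.37 and not called. Pcna was at 10.55 and 11.60 in IgG1 plasma cells and 10.999, 10.87, 11.54 and 10.90 in IgE plasma cells and was called lower in IgE cells (-1.0 ± 0.30, adjusted p = 0.0233) and not in IgG1 cells (-0.71, adjusted p = 0.193). Rpa1, the large single-strand binding subunit, was called lower in IgE cells (-1.01), and Rpa2 in neither (0.18 and 0.22).

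Rrm2 was not called between plasma and GC cells. It was at 9.96 and 10.93 in IgG1 plasma cells and 9.91, 10.39, 10.55 and 9.92 in IgE plasma cells, and the differences from GC cells were 0.04 ± 0.23 and 0.49 ± 0.28 (adjusted p = 0.936 and 0.245). Rrm1, its partner subunit, was at 7.97 and 8.89 in IgG1 plasma cells and 8.09, 8.83, 8.72 and 8.04 in IgE plasma cells, below every GC array, with differences of -1.17 ± 0.32 (adjusted p = 0.0132) and -1.04 ± 0.39 (adjusted p = 0.0678). Tyms was at 0.36 and 0.56 above GC cells and not called.

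**Figure D3:**
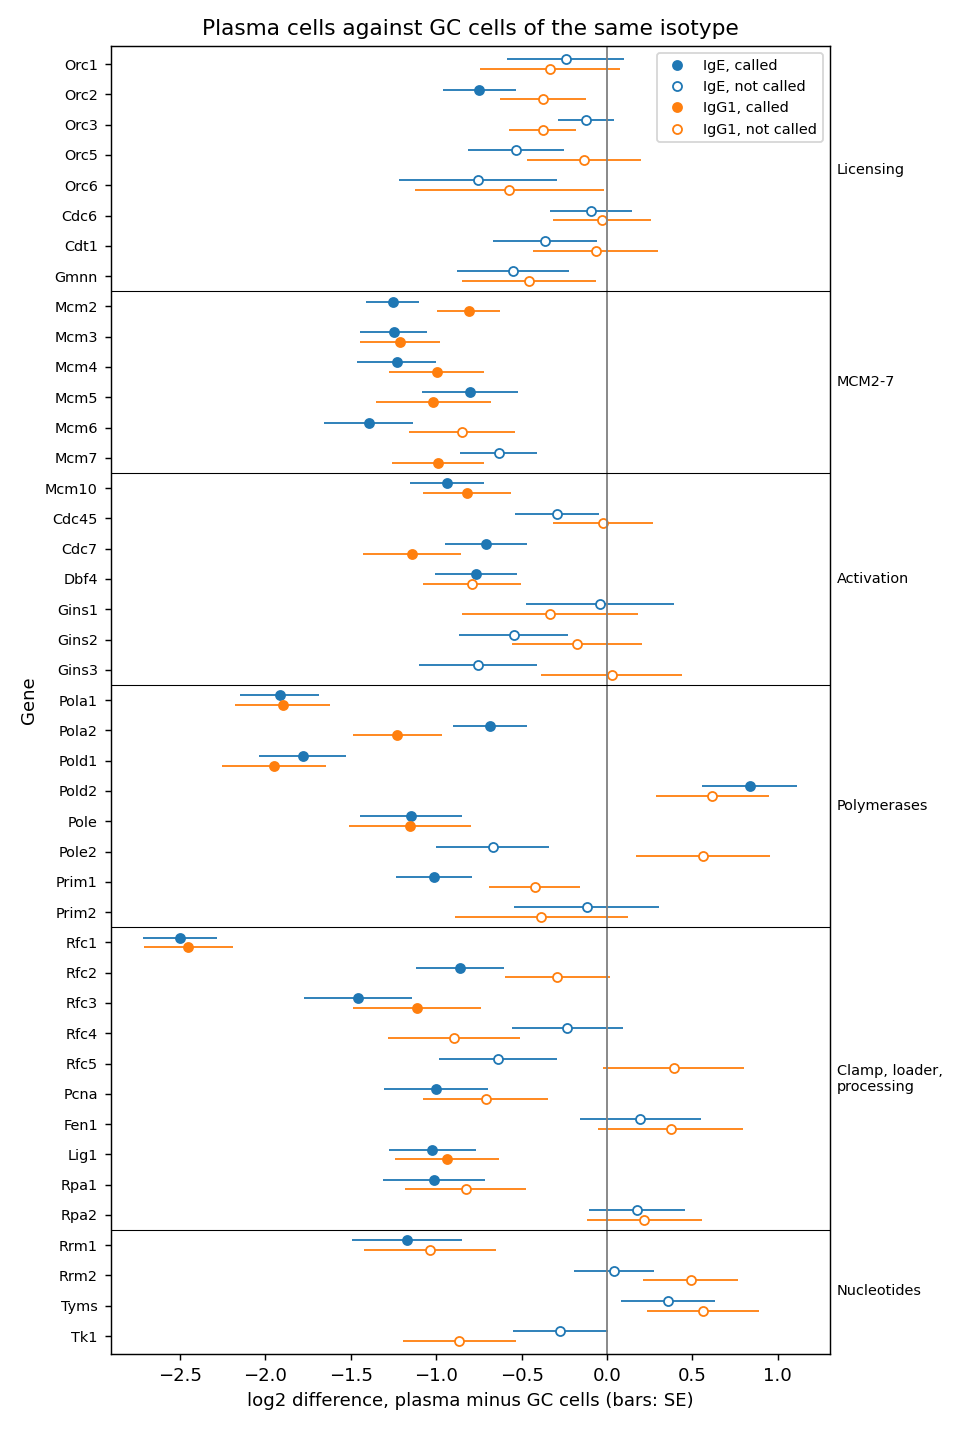
Log2 difference of plasma cells from GC cells of the same isotype (horizontal axis, bars are SE) for the 43 genes, grouped by role, in IgE cells (blue, 4 against 3 arrays) and IgG1 cells (orange, 2 against 3 arrays), with filled points for genes called at adjusted p under 0.05. Rfc1 lies near -2.5 in both isotypes, Pola1 and Pold1 between -1.78 and -1.95, and Pold2 at 0.83 and 0.62, while most licensing genes are unfilled.

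Isotype and GFP gave few differences. Between IgE and GFP+ IgG1 GC cells none of the 43 genes was called by limma, as 0% of all genes tested were called. Under an unadjusted p of 0.05 were 1 of the 43 and 264 of all 12098 genes. The median difference was 0.14, with 37 of the 43 genes above 0, beside 6700 of all 12098 genes. The 3 genes with the smallest p were Tk1 (-0.67 ± 0.30), Pole2 (0.62 ± 0.35) and Prim1 (0.41 ± 0.24), each at an adjusted p of 1, and the difference of Tk1 was 0.040 with its other probe set. GFP+ IgG1 GC array 3 was the lowest GC array for the mean over the 43 genes (8.19, against 8.40 to 8.65 on the others), and without it the median was 0.075. In every alternative the count was 0.

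Between GFP+ and GFP- IgG1 GC cells none of the 43 genes was called by limma, and none was under an unadjusted p of 0.05. Of all 12098 genes tested, 0% were called there too, and 265 were under an unadjusted p of 0.05. Gins3 (-0.62 ± 0.37), Rfc4 (0.55 ± 0.35) and Orc2 (-0.27 ± 0.23) had the smallest p, at an adjusted p of 1. Gins3 was at 7.21, 7.57 and 7.46 in GFP- and 6.47, 7.64 and 6.28 in GFP+ cells, so 2 of the 3 GFP+ arrays were low. Same-numbered arrays of these groups deviated together, and a fit with the replicate block again gave a count of 0. The values above are from the fit without the block.

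Between IgE and IgG1 plasma cells limma called none of the 43 genes, where 0.785% of all genes were called higher and 0.174% lower in IgE cells. None of the 43 was under an unadjusted p of 0.05, beside 1575 of all 12098 genes. Pola2 (0.51 ± 0.25, adjusted p = 0.389), Cdc7 (0.53 ± 0.27, adjusted p = 0.43) and Rfc2 (-0.51 ± 0.29, adjusted p = 0.493) had the smallest p. Pola2 was the only one of these 3 whose isotypes did not overlap. With 2 IgG1 arrays that differed from each other, the SE was 0.18 to 0.52 for the 43 genes. Rfc2 showed the weight of each array: it was called at -1.20 without IgG1 plasma cell array 1 (adjusted p = 0.0334, range 0.0334 to 0.926 over its alternatives) and was at 0.17 without array 2. The median over the 43 genes, 0.016 with both arrays, was -0.25 without array 1 and 0.41 without array 2. The change from GC to plasma cells was compared between isotypes as an interaction (the IgE change minus the IgG1 change). It called none of the 43 genes, where 0.0909% of all genes were called. Under an unadjusted p of 0.05 were 1 of the 43 and 822 of all 12098 genes. Pole2 (-1.23 ± 0.52, adjusted p = 0.661), Rfc5 (-1.03 ± 0.54, adjusted p = 0.79) and Mcm2 (-0.44 ± 0.24, adjusted p = 0.803) had the smallest p.

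In IgG1 GC cells a small number of replication genes differed between the zones. Of the 43 genes, 5 were called higher in the dark zone and 1 lower, with a median difference of 0.25, where 3.92% of all genes tested were higher and 3% lower (median 0.0030). In all, 37 of the 43 genes were above 0 and 19 were under an unadjusted p of 0.05. Of all 11050 genes tested, 5595 were above 0 and 2393 under that p. The list of 24 mitotic genes gave 17 called higher with a median of 0.78, among them Plk1 (1.34), Cenpf (1.42) and Cdc20 (1.25). Of the sort markers, Cd86 was at 9.12 to 9.29 in dark and 10.27 to 10.34 in light zone cells as group means, and Cxcr4 at 11.21 to 11.33 and 10.87 to 11.04. The T cell markers were at 5.03 to 5.92 on the dark and 5.59 to 6.13 on the light zone arrays, and their part in these differences was not tested.

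Dbf4 was at 8.43, 8.36 and 8.26 in GFP+ and 8.64, 8.66 and 8.53 in GFP- dark zone cells, against 7.63, 7.84 and 7.98 in GFP+ and 7.61, 7.58 and 7.63 in GFP- light zone cells. Every dark zone array was above every light zone array, with a difference of 0.77 ± 0.09, or 1.71-fold (adjusted p = 0.000443). Pola1 was at 8.99, 8.93 and 8.91 in GFP+ and 9.21, 8.89 and 9.16 in GFP- dark zone cells, against 8.52, 8.42 and 8.28 in GFP+ and 8.51, 8.25 and 8.32 in GFP- light zone cells. Its zones did not overlap either, and the difference was 0.63 ± 0.10 (adjusted p = 0.00196). These 2 calls held in every alternative run.

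Gins1 was at 7.30, 7.44 and 7.37 in GFP+ and 7.04, 6.97 and 7.51 in GFP- dark zone cells, against 7.18, 6.57 and 6.26 in GFP+ and 6.50, 6.56 and 6.78 in GFP- light zone cells, with a difference of 0.63 ± 0.15 (adjusted p = 0.0279). GFP+ light zone array 1 reached the dark zone range. Rrm1 was at 9.59, 9.02 and 9.60 in GFP+ and 9.52, 9.29 and 9.59 in GFP- dark zone cells, against 9.21, 8.95 and 9.17 in GFP+ and 8.84, 8.60 and 8.66 in GFP- light zone cells, with a difference of 0.53 ± 0.12 (adjusted p = 0.0218). GFP+ dark zone array 2 lay within the light zone range. Mcm6 was at 9.82, 9.77 and 9.20 in GFP+ and 9.69, 9.62 and 9.83 in GFP- dark zone cells, against 9.08, 9.06 and 9.38 in GFP+ and 9.11, 9.05 and 9.21 in GFP- light zone cells, with a difference of 0.51 ± 0.12 (adjusted p = 0.0275). GFP+ dark zone array 3 was low for Mcm6 and below 2 light zone arrays. The count of 6 calls fell to 3 without GFP+ dark zone array 1, GFP+ light zone array 2, GFP- light zone array 2 or GFP- dark zone array 3.

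The 1 gene called lower was Tk1, at 8.85, 8.38 and 8.74 in GFP+ and 8.78, 8.65 and 9.13 in GFP- dark zone cells, against 9.41, 9.29 and 9.996 in GFP+ and 9.75, 9.28 and 9.74 in GFP- light zone cells. The difference was -0.82 ± 0.15 (adjusted p = 0.00722), with no overlap. With the other probe set Tk1 was at 9.16, 8.20 and 8.90 in GFP+ and 8.56, 9.88 and 9.16 in GFP- dark zone cells, against 8.35, 8.79 and 8.28 in GFP+ and 9.13, 8.16 and 8.19 in GFP- light zone cells, and the difference was 0.49 and was not called. The direction for Tk1 is therefore uncertain.

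No other gene of the set was called between zones. Of the 8 licensing genes none was called, with Cdc6 at 0.55 ± 0.18 (adjusted p = 0.0969) and Orc1, Orc3 and Orc5 at 0.02, -0.02 and -0.15. Of the 10 clamp, loader and processing genes none was called either, with Rfc3 at 0.43 ± 0.13 (adjusted p = 0.0611) and Pcna at 0.12. Cdc7, the kinase that Dbf4 activates, had a difference of 0.0044 ± 0.23 (adjusted p = 0.995).

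**Figure D4:**
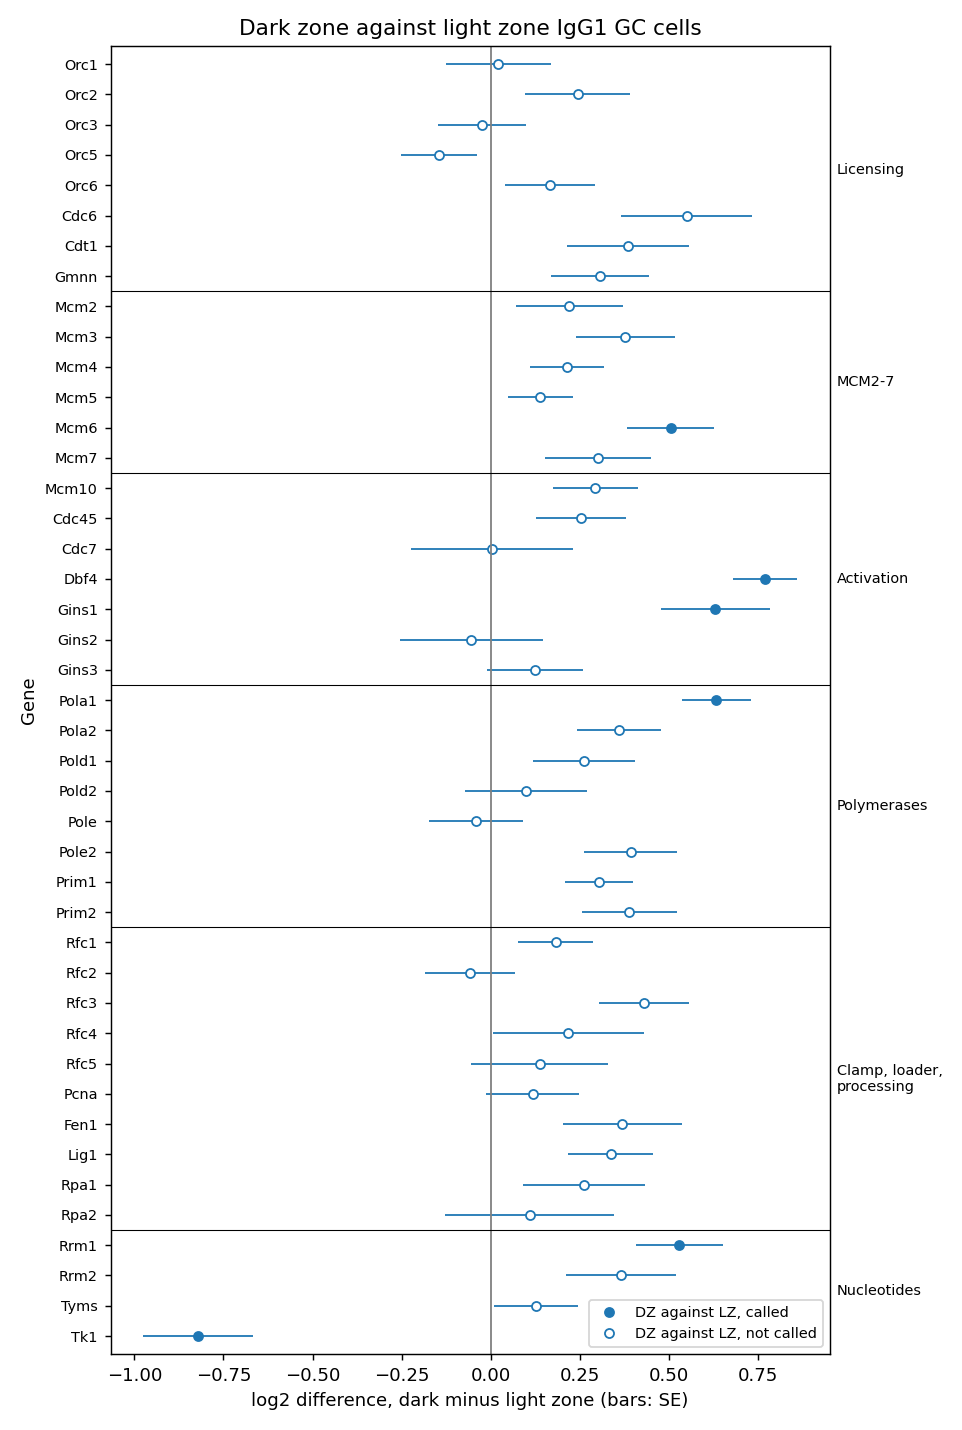
Log2 difference of dark zone from light zone IgG1 GC cells (horizontal axis, bars are SE, 6 against 6 arrays) for the 43 genes, grouped by role, with filled points for genes called at adjusted p under 0.05. Dbf4, Pola1, Gins1, Rrm1 and Mcm6 are filled to the right of 0 and Tk1 to the left at -0.82, and most other points lie between 0 and 0.5.

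GFP+ and GFP- cells of the sorted zones gave no call in the set with limma, where 0% of all genes tested were called. Under an unadjusted p of 0.05 were 1 of the 43 and 519 of all 11050 genes. Pold2 (0.47 ± 0.17), Orc5 (-0.20 ± 0.11), Rfc5 (-0.32 ± 0.19) and Pole2 (0.21 ± 0.13) had the smallest p, each at an adjusted p of 0.941. The zone difference was also not called as differing between GFP+ and GFP- cells for any of the 43 genes, again beside 0% of all genes. Under an unadjusted p of 0.05 were 4 of the 43 (Prim1, Dbf4, Cdc6 and Rfc3), beside 543 of all 11050 genes. Below 0 were 6095 of all 11050. Prim1 (-0.50 ± 0.19), Dbf4 (-0.47 ± 0.18) and Cdc6 (-0.87 ± 0.37) had the smallest p, each at an adjusted p of 0.986, and 34 of the 43 values were below 0, which means a smaller zone difference in GFP+ cells, with a median of -0.19 against -0.036 over all genes.

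Another 40 genes that act at replication forks, in nucleotide supply or in chromatin assembly behind the fork gave the wider setting. In IgE GC cells 30 of the 40 were called higher than in naive cells and 1 lower, with a median of 1.56, and in GFP+ and GFP- IgG1 GC cells 28 and 30 were higher and 1 lower. The shares over all genes tested were 19.3%, 16.8% and 20.5% higher and 7.4%, 6.43% and 9.35% lower in IgE, GFP+ IgG1 and GFP- IgG1 GC cells. The largest were Dtl, an adaptor that marks Cdt1 for degradation (3.93 ± 0.38 in IgE GC cells, adjusted p = 7.83e-07), Uhrf1, which brings the maintenance methyltransferase to new DNA (3.68 ± 0.25, adjusted p = 1.51e-08), and Asf1b, a histone chaperone (3.50 ± 0.24, adjusted p = 1.49e-08). Whether the 40 genes were above the array median on the naive arrays was not examined, so the weight of the calls against naive cells is uncertain. Donson, a replisome assembly factor, was the 1 gene called lower, at 7.86 to 8.49 on naive arrays and 7.13 to 7.35 on IgE GC arrays (-0.92 ± 0.20, adjusted p = 0.00227), and it was also lower in GFP+ (-1.30 ± 0.20, adjusted p = 0.00012) and GFP- IgG1 GC cells (-1.17 ± 0.20, adjusted p = 0.000309). Mcm9 and Pold4 were below 0 without a call in all 3 comparisons (-0.45, -0.33 and -0.08 for Mcm9, and -0.14, -0.37 and -0.02 for Pold4). Rnaseh2c was below 0 in the GFP+ and GFP- comparisons (-0.21 and -0.14) and Orc4 in the GFP+ comparison (-0.21), also without a call.

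Between plasma and GC cells, 21 of these 40 genes were called lower in IgE and 16 in IgG1 cells, and none higher. Over all genes tested, 13.4% and 13.1% were lower and 10.2% and 8.32% higher. After Pold4, the largest in IgE cells were Dck, a deoxynucleoside salvage kinase (-2.51 ± 0.26, adjusted p = 1.35e-06), and Rrm2b, the ribonucleotide reductase subunit used outside S phase (-2.46 ± 0.26, adjusted p = 1.74e-06). In IgG1 cells Rrm2b was lower, at -2.16 ± 0.31 (adjusted p = 6.42e-05) and Uhrf1 at -1.87 ± 0.28 (adjusted p = 0.000124). Rrm2, the S-phase counterpart of Rrm2b, had shown no call in the same comparisons. In the dark zone 5 of the 40 were called higher and none lower than in the light zone, beside 3.92% and 3% of all genes tested. They were led by Top1, a topoisomerase (0.86 ± 0.10, adjusted p = 0.000438), Dck (0.65 ± 0.08, adjusted p = 0.000568) and Rnaseh2c (0.55 ± 0.12, adjusted p = 0.0144).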

How the data were processed

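RNA (2 ng per sort) was amplified with the NuGEN SPIA kit and hybridised to Affymetrix Mouse Gene ST arrays, per the labels' protocols. The authors deposited log2 values after RMA, made with R 2.15.2, per the submitters' processing notes. No further normalization was applied. Of 34760 probe sets, 21640 carried 1 gene symbol in the platform annotation, 1321 several and 11799 none, and only those with 1 were named (19937 genes). Where a gene had several, the brightest by its mean on the 30 arrays stood for it. Genes above the array median on at least 2 arrays (first experiment) or 3 arrays (second) were tested.

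Each experiment was fitted on its own with limma 3.58.1 (lmFit, eBayes, R 4.3.3) over all its groups, without a block, with Benjamini-Hochberg adjustment over all genes tested. The fit was tested on simulated data. Errors of differences are standard errors of the fit. Arrays have no read depth, and their number limits the precision. p-values measure the spread between pools from independent sorts. Replicate numbers were checked for pairing, and same-numbered GFP+ and GFP- IgG1 GC arrays correlated in their deviations at 0.109 to 0.154 in 3 pairs. The replicate block was fitted as an alternative only, and the differences, errors and p-values given are from the fit without it. Per role, the 2 genes with the largest and the 1 with the smallest mean difference between GC and naive cells were described array by array, and in the other comparisons the largest calls or, without calls, the 3 smallest p-values. Others named were chosen after their values were seen. The members and all lists were chosen with earlier results of these data known. Promoters were searched with Python 3.11.15, and figures drawn with matplotlib 3.10.9.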

Additional observations from a re-analysis of the deposited data

Results flagged for a closer look

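Of the 43 genes, each examined in the 4 IgE plasma cell arrays, 1 had an array far from the others. Gins1, a subunit of the GINS complex of the running helicase, was at 8.66 on IgE plasma cell array 3 and at 6.53 to 6.76 on the other 3 arrays, a gap of 0.895 of the whole range. Chance flags about 1 in 20 of the genes examined, so 1 flag among 43 genes is no more than chance gives. The IgE plasma cells were the only group with enough arrays to be examined.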

How the results depend on the processing

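The choices compared were further quantile normalization, the filter on dim genes, the probe set of a gene, moderation, array weights, the replicate block, the samples fitted and leaving out each array. The alternative with the other probe sets of Pcna and Tk1 was chosen after seeing the data. Over all alternatives the calls ranged from 37 to 41 for IgE GC, 35 to 40 for GFP+ IgG1 GC, 37 to 41 for GFP- IgG1 GC and 32 to 37 for IgE plasma cells against naive cells, and were 0 for IgE against IgG1 GC cells, for both GFP comparisons and for both interactions. Fitted without the other groups, IgG1 plasma cells gave 21 calls against naive cells and 8 against GC cells. Leaving out 1 array, the calls ranged from 23 to 33 for IgG1 plasma cells against naive cells, 12 to 21 for IgE plasma against GC cells, 8 to 18 for IgG1 plasma against GC cells, 0 to 1 for IgE against IgG1 plasma cells and 3 to 7 for dark against light zone. The last tests have fewer samples. With the replicate number as a block the counts were 40, 40 and 40 for the 3 GC groups and 37 and 33 for IgE and IgG1 plasma cells against naive cells, 17 and 13 for plasma against GC cells, and 7 between zones. Beyond the GFP comparison of GC cells, same-numbered arrays of the second experiment correlated in their deviations at 0.0017 to 0.199 in 18 pairs. Those of IgE and GFP+ IgG1 GC cells correlated at 0.0050 to 0.222 in 3 pairs. The main fits have no block, so their p-values leave this out. The block moved no count by over 1.5 times. Signs turned for small or disputed differences. Orc3 turned to -0.23 (quantile), -0.089 (without IgE GC array 2) and -0.041 (without naive array 3) in IgE GC and to -0.00071 (quantile) in GFP+ IgG1 GC against naive cells. Tk1 against naive cells turned with the mean of its probe sets to 0.49 (IgE GC), 0.53 (GFP- GC) and 0.17 (IgE plasma cells), and with its other probe set to 1.45, 1.13 and 1.07. Tk1 in GFP+ GC cells turned to -0.058 (array weights), -0.034 (without GFP+ array 3) and -0.19 (without naive array 2; range over arrays left out up to 0.44), and in GFP- GC cells to 0.16 (without naive array 1, alone or with GFP+ GC array 3), 0.10 (without GFP- array 2) and 0.10 (without naive array 3; range from -0.47). With its other probe set Tk1 was at 0.040 between IgE and IgG1 GC cells and 0.49 between zones. In IgE plasma against naive cells Orc2 turned to -0.15 (quantile), -0.17 (without IgE plasma cell array 2), -0.068 (without array 3) and -0.042 (without naive array 2), with a range up to 0.19, and Rfc2 to -0.15 (quantile) and -0.018 (without naive array 1, alone or with GFP+ GC array 3; range up to 0.28). Rfc2 between plasma cell isotypes ranged from -1.20 without IgG1 array 1 to 0.17 without array 2. Where the alternative was not another probe set or fewer arrays, the cause was not tested.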
